A study of Mus musculus with 2 samples.

Results

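The long terminal repeats (LTRs) of the intracisternal A-particle (IAP) were described by subtype in mouse embryonic stem (ES) cells labelled as having kept or lost Daxx. They are the rows of the deposited table whose family name starts with IAP and is not that of an internal part (no ending -int or _I). This name rule gave 10 LTR families among 634 families of transposable elements, and the other 6 IAP rows are internal parts. All 10 are in the table's ERVK superfamily, the class II endogenous retroviruses. Together they count 10807 annotated copies, from 182 in IAPLTR3 to 2247 in IAPLTR2_Mm.

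The study asked whether endogenous retroviruses become active in ES cells that lose Daxx. Both cultures were of B6/129 strain background and of genotype Daxx fl/fl with RosaCreERT, a Cre recombinase that tamoxifen switches on, and were grown on feeder cells inactivated with mitomycin C. The control culture was given DMSO, the solvent. The Daxx-deleted culture, labelled as Daxx -/-, was given 1 µM 4-hydroxytamoxifen (4-OHT) for 48 h and had 3 days to recover. Each condition was sequenced as 1 RNA library, which leaves the values without an error between replicates. No test was run, and each comparison below describes these 2 libraries, called the DMSO library and the 4-OHT library. The control culture was given no 4-OHT, which also activates Cre, so the loss of Daxx, the drug and Cre activity cannot be told apart. The table's rows are repeat families, and Daxx itself, ES cell markers and feeder cell markers were not analysed here.

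IAPs are retroviruses that became part of the mouse genome and still move within it. An inserted copy carries the same LTR at each end. The upstream LTR holds the promoter, the downstream LTR ends the transcript, and the internal part between them encodes the particle proteins. Recombination between the LTRs of a copy leaves a solo LTR without an internal part, which can still act as a promoter. In ES cells IAPs are kept silent by DNA methylation and by histone H3 lysine 9 trimethylation, set by Setdb1 with its partner Trim28. Daxx is a chaperone that, with Atrx, places the histone variant H3.3 on repeats, IAPs among them.

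Levels are RPKM, which are reads scaled by length and by the reads of the same library in exons of protein-coding genes. Whether that length is of a copy or of a whole family is not given. Log2 changes compare the 4-OHT with the DMSO library after 0.001 RPKM, the pseudocount, was added to each value, and ratios are quotients of the deposited values with nothing added. IAPLTR1_Mm stood far above the other IAP LTRs in level and in its difference in RPKM, and it also had the highest ratio of the 10. It measured 0.125 RPKM with DMSO and 0.330 RPKM with 4-OHT, a ratio of 2.64 and a difference of 0.205 RPKM. It has 1492 copies. In bulk RNA, more RNA per cell and a larger share of cells with active copies cannot be told apart. The next highest IAP LTR of each library was lower by 5.57-fold in the DMSO library, where it was IAPLTR2b, and by 9.91-fold in the 4-OHT library, where it was IAPLTR2_Mm. The other 9 families lay between 0.00494 and 0.0224 RPKM in the DMSO library and between 0.00480 and 0.0333 RPKM in the 4-OHT library.

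**Figure D1:**
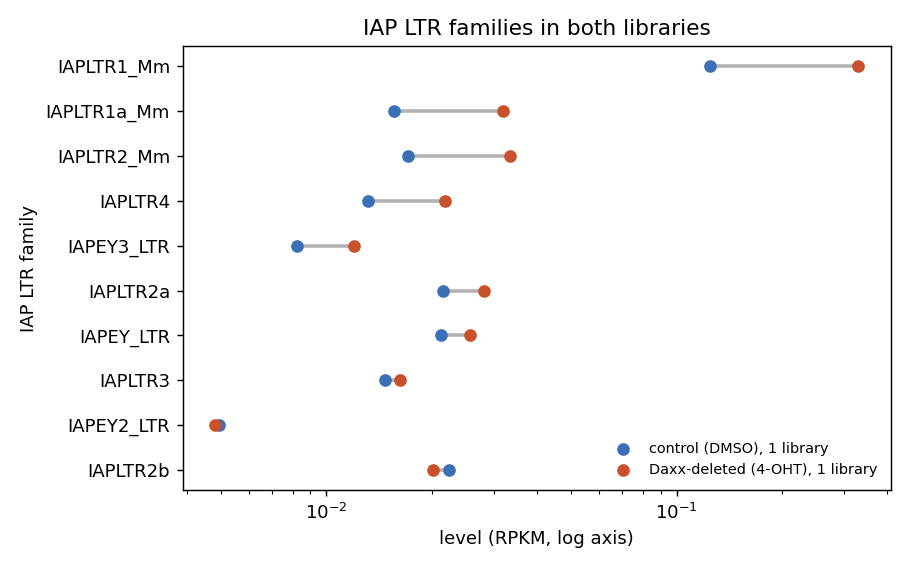
Level of each IAP LTR family (RPKM, log axis) in the DMSO library (blue) and in the 4-OHT library (orange), ordered by the ratio of the libraries, with 1 library per condition and no error bars. IAPLTR1_Mm lies to the right of the other 9 families in both libraries, at 0.125 and 0.330 RPKM, and the lines shorten from the top of the plot to IAPLTR3, while IAPEY2_LTR and IAPLTR2b are lower in the 4-OHT library.

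IAPLTR1a_Mm belongs to the same subtype as IAPLTR1_Mm and was at a much lower level. It measured 0.0156 RPKM with DMSO and 0.0320 RPKM with 4-OHT, a ratio of 2.05, with 1923 copies. The level of IAPLTR1_Mm was 10.3 times that of IAPLTR1a_Mm in the 4-OHT library. Both IAPLTR1 families were thus higher in the 4-OHT library by over 2-fold as a quotient. With the pseudocount their log2 changes were 1.40 for IAPLTR1_Mm and 0.99 for IAPLTR1a_Mm, so IAPLTR1a_Mm falls just under 2-fold on that scale.

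The IAPLTR2 subtype did not move as a block. IAPLTR2_Mm, with the most copies of the 10, measured 0.0171 RPKM with DMSO and 0.0333 RPKM with 4-OHT, a ratio of 1.95. IAPLTR2a, with 973 copies, measured 0.0216 RPKM with DMSO and 0.0282 RPKM with 4-OHT, a ratio of 1.31. IAPLTR2b, with 1063 copies, measured 0.0224 RPKM with DMSO and 0.0202 RPKM with 4-OHT, a ratio of 0.899. With DMSO, IAPLTR2b was the highest IAP LTR after IAPLTR1_Mm, 1.32 times the level of IAPLTR2_Mm. In the 4-OHT library that order was turned, with IAPLTR2_Mm at 1.65 times the level of IAPLTR2b, which was at place 7 of the 10. Depth is unknown and cultures were not repeated, so whether neighbours in this order differ beyond error could not be judged.

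IAPLTR3 and IAPLTR4 are LTR families with fewer copies. IAPLTR4, with 425 copies, measured 0.0131 RPKM with DMSO and 0.0218 RPKM with 4-OHT, a ratio of 1.66. IAPLTR3 measured 0.0147 RPKM with DMSO and 0.0162 RPKM with 4-OHT, a ratio of 1.10. IAPLTR3 has the fewest copies of the 10. IAPLTR3 was the higher of the pair in the DMSO library, and IAPLTR4 was 1.34 times its level in the 4-OHT library.

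The IAPEY LTRs belong to the IAPE branch, whose elements carry an envelope gene that most other IAPs lack. IAPEY_LTR, with 576 copies, measured 0.0213 RPKM with DMSO and 0.0256 RPKM with 4-OHT, a ratio of 1.20. IAPEY3_LTR, with 871 copies, measured 0.00825 RPKM with DMSO and 0.0120 RPKM with 4-OHT, a ratio of 1.45. IAPEY2_LTR, with 1055 copies, had the lowest level of all 10 in both libraries, at 0.00494 and 0.00480 RPKM, a ratio of 0.972. Not one of the 3 was at least 1.5-fold higher, as were 18.9% of all 634 families. With only 3 families, this count cannot be told apart from that share. Summed over the subtype, the 4-OHT level was 1.23 times the DMSO level, against 2.58 times for the IAPLTR1 subtype, 1.34 times for IAPLTR2 and 1.37 times for IAPLTR3 and IAPLTR4.

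The table as a whole was shifted towards the 4-OHT library, and the IAP LTRs have to be read against that shift. A floor of a mean of 0.01 RPKM over both libraries and at least 100 copies kept 436 of the 634 families, whose median log2 change was 0.18. Of the 10 IAP LTRs, 9 passed this floor. IAPEY2_LTR did not, and IAPEY3_LTR, at a mean of 0.0101 RPKM, passed only through its 4-OHT value. Values above those of the DMSO library were seen in 8 of the 10 IAP LTRs, against 72.9% of all 634 families and 78.9% of those at the floor, so this count is close to that of the table. At least 1.5-fold higher with the pseudocount were 4 of the 10, namely IAPLTR1_Mm, IAPLTR1a_Mm, IAPLTR2_Mm and IAPLTR4, against 18.9% of all families and 15.1% at the floor. At least 2-fold higher was 1 of the 10, IAPLTR1_Mm, against 9.31% and 5.28%, a share near the background. No IAP LTR was 1.5-fold lower, as were 3.94% of all families and 1.38% at the floor. To compare at a like level, the 9 lower IAP LTRs were also set beside the 230 other families in their level range with at least 100 copies. Of those, 20.0% were 1.5-fold higher and 8.70% were 2-fold higher, and of the 9 IAP LTRs 3 and 0 were.

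The median log2 change of all 10 IAP LTRs was 0.43, which is 0.25 above the median family. Relative to the median family, IAPLTR1_Mm had a log2 change of 1.22, IAPLTR1a_Mm 0.81, IAPLTR2_Mm 0.75 and IAPLTR4 0.51. IAPLTR4 is thus no longer 1.5-fold higher once the shift is removed, which leaves 3 of the 10. The share of all families past 1.5-fold on this shifted scale is not given, so that count has no background. IAPEY3_LTR, IAPLTR2a and IAPEY_LTR lay above it by 0.31, 0.19 and 0.08. IAPLTR3 changed side, from a log2 change of 0.13 to -0.05 relative to the median family, and IAPEY2_LTR and IAPLTR2b lay below it at -0.21 and -0.32. The IAP LTRs therefore lay on both sides of the median family, with the 3 families named _Mm at the upper end.

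**Figure D2:**
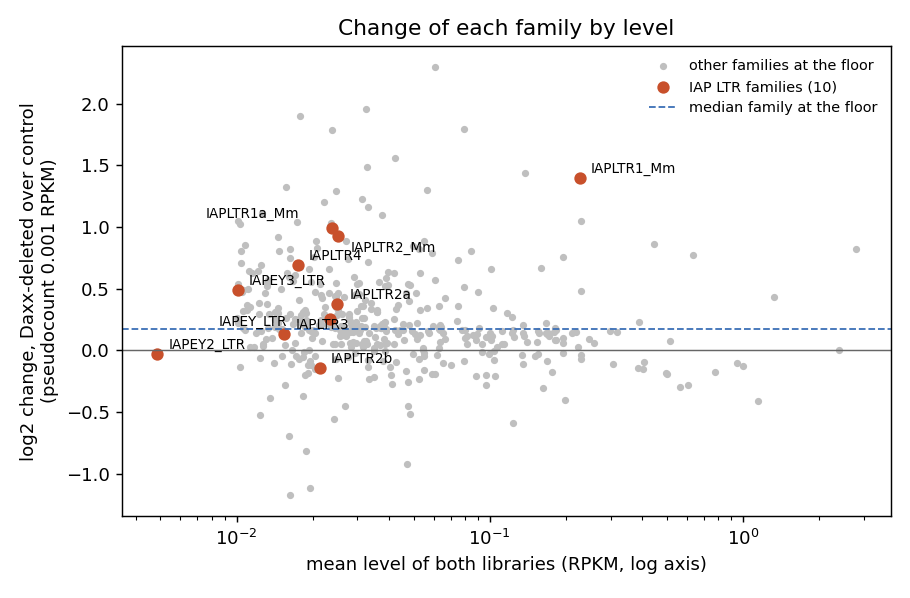
Log2 change of each family (4-OHT over DMSO, pseudocount 0.001 RPKM) against its mean level in RPKM on a log axis, with 1 library per condition. Grey points are the other families at the floor, orange points are the 10 IAP LTR families, and the dashed line is the median family at 0.18. IAPLTR1_Mm lies at a log2 change of 1.40, near IAPEz-int at 1.44 among the grey points, and the other 8 IAP LTRs at the floor lie among grey points of their level, from -0.15 for IAPLTR2b to 0.99 for IAPLTR1a_Mm. IAPEY2_LTR lies to the left of the floor, where no grey points are drawn.

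IAPLTR1_Mm also had the largest share of the summed RPKM values of the IAP LTRs. RPKM values are scaled by length, so these shares are not shares of IAP LTR transcripts. The 10 families summed to 0.264 RPKM in the DMSO library and to 0.524 RPKM in the 4-OHT library, a ratio of 1.99. IAPLTR1_Mm made up 47.3% of the DMSO sum, 63.0% of the 4-OHT sum and 78.8% of the difference between them. Without it, the ratio of the sums was 1.40, which on the log2 scale is 0.48 in place of 0.99. Among all 634 families IAPLTR1_Mm was at place 81 by level in the DMSO library and at place 31 in the 4-OHT library. Its difference in RPKM was at place 10 of the table.

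The 3 families with the suffix _Mm (a Repbase marker for Mus musculus), IAPLTR1_Mm, IAPLTR1a_Mm and IAPLTR2_Mm, had the 3 highest ratios and the 3 highest copy numbers of the IAP LTRs. This grouping was noticed in the values, so the higher ratio of its sum follows from how it was chosen. Summed, the 3 families measured 0.158 RPKM with DMSO and 0.396 RPKM with 4-OHT, a ratio of 2.51. IAPLTR1_Mm alone gave 0.125 RPKM of the DMSO sum and 0.330 RPKM of the 4-OHT sum. The 7 others summed to 0.106 and 0.129 RPKM, a ratio of 1.21. Across the 10 families, copy number and log2 change had a Pearson's r of 0.57 and a Spearman's rho of 0.43. Without IAPLTR1_Mm these were 0.57 and 0.27 over 9 families. The families share both libraries, and similar LTRs can share multi-mapped reads, so these are descriptions only.

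**Figure D3:**
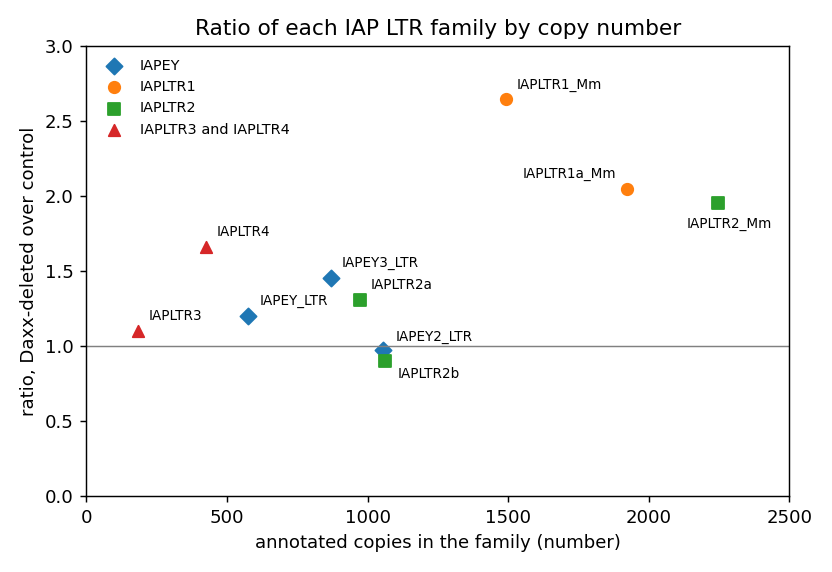
Ratio of each IAP LTR family (4-OHT over DMSO, 1 library each) against its number of annotated copies, with the marker giving the subtype and the line at a ratio of 1. The 3 families with the most copies, IAPLTR1_Mm, IAPLTR1a_Mm and IAPLTR2_Mm, lie at ratios of 1.95 to 2.64, and the 7 others at 0.899 to 1.66.

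The LTRs were set beside internal parts of IAP elements, where the table has one to compare. The table does not pair LTRs with internal parts, and IAPEz-int, which encodes the particle proteins of the main IAP group, was set beside the IAPLTR1 and IAPLTR2 LTRs from general knowledge of IAP structure. IAPEz-int measured 0.0736 RPKM with DMSO and 0.201 RPKM with 4-OHT, a ratio of 2.74. Of those LTRs, IAPLTR1_Mm was the closest to it, its log2 change differing by -0.04. In RPKM, IAPLTR1_Mm had 1.70 times the level of IAPEz-int in the DMSO library and 1.64 times in the 4-OHT library. The log2 changes of the other LTRs were smaller than that of IAPEz-int, by 0.45 for IAPLTR1a_Mm, 0.51 for IAPLTR2_Mm, 1.07 for IAPLTR2a and 1.59 for IAPLTR2b.

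The pairs that share a name differed in how well LTR and internal part matched. IAPEY3_LTR and IAPEY3-int had close ratios, 1.45 and 1.38, the internal part measuring 0.0181 RPKM with DMSO and 0.0251 RPKM with 4-OHT. IAPEY_LTR and IAPEy-int did not: the internal part, with 536 copies, measured 0.0126 RPKM with DMSO and 0.0521 RPKM with 4-OHT, a ratio of 4.12 against 1.20 for the LTR. IAPEY_LTR was 1.69 times the level of IAPEy-int in the DMSO library and 0.492 times in the 4-OHT library. IAPLTR3-int measured 0.00317 RPKM with DMSO and 0.00576 RPKM with 4-OHT, a ratio of 1.82 against 1.10 for IAPLTR3. Both values of IAPLTR3-int are under the floor of 0.01 RPKM, so this gap rests on a low level. With the pseudocount the log2 changes were 0.70 and 0.13. IAPLTR4_I was listed at 0 in the DMSO library and had 0.00264 RPKM in the 4-OHT library, so no ratio is given for it. IAPEY2_LTR has no internal part of its own name in the table, and IAP-d-int, at 0.0186 and 0.0353 RPKM, has no LTR of its name. An LTR and its internal part can lie on the same transcript, and solo LTRs have no internal part beside them. The values of a pair are therefore neither independent nor matched copy by copy.

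**Figure D4:**
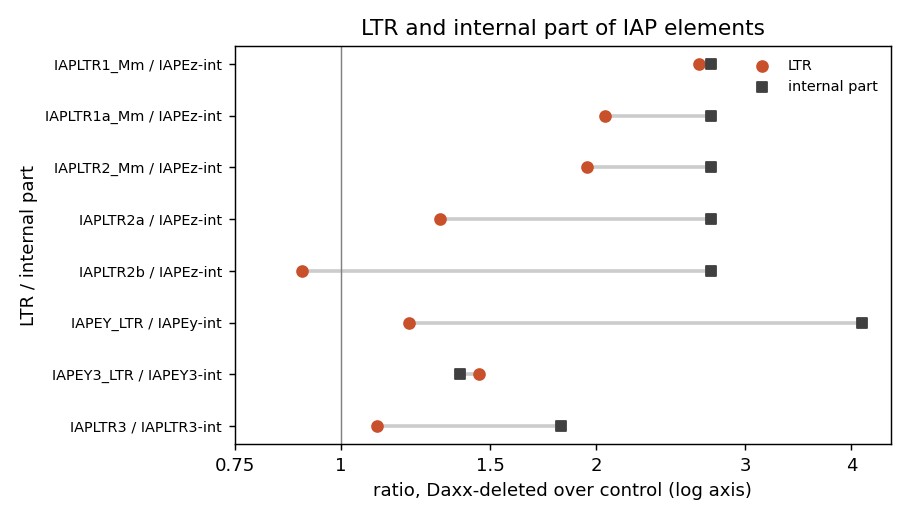
Ratio of 4-OHT over DMSO library (log axis, 1 library each) for an IAP LTR family (circle) and for the internal part set beside it (square), with the line at a ratio of 1; IAPLTR4 is left out because its internal part was listed at 0 in the DMSO library. IAPLTR1_Mm and IAPEz-int nearly coincide at 2.64 and 2.74, and the widest gap is that of IAPEY_LTR at 1.20 and IAPEy-int at 4.12. IAPLTR3-int is under the floor of 0.01 RPKM.

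The other class II LTRs were the nearest comparison. Of 109 other ERVK LTR families, 94 passed the floor, and their median log2 change of 0.22 was 0.04 above the median family. Of these 94, 14.9% were 1.5-fold higher in the 4-OHT library and 1.06%, which is the single family RLTR10C, were 2-fold higher. RLTR10C, an LTR of the MMERVK10C group with 1780 copies, measured 0.0167 RPKM with DMSO and 0.0487 RPKM with 4-OHT, a ratio of 2.92. When the 94 and the 9 IAP LTRs at the floor were ranked together by log2 change, RLTR10C was at place 1 and IAPLTR1_Mm, IAPLTR1a_Mm and IAPLTR2_Mm took places 2 to 4. Ranked by ratio, RLTR44B, at 1.98 with 164 copies, came before IAPLTR2_Mm at 1.95, which was then at place 5. By log2 change, IAPLTR4 was at place 10, IAPEY3_LTR at 23, IAPLTR2a at 30, IAPEY_LTR at 47, IAPLTR3 at 74 and IAPLTR2b at 97 of the 103. By difference in RPKM, IAPLTR1_Mm was at place 1 of the 103. The difference between IAP and other ERVK LTRs was not tested, since each condition has 1 library.

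Families most like IAPLTR1_Mm were sought among the 18 LTR families outside IAP that are no internal parts, have at least 100 copies and a mean level within 2-fold of its own. None of the 18 reached its log2 change of 1.40: theirs lay between -0.59 and 0.87, and the median was 0.11. LTR families at other levels did. MT2_Mm, of the ERVL superfamily with 2631 copies, measured 0.0210 RPKM with DMSO and 0.0637 RPKM with 4-OHT, a log2 change of 1.56. RLTR10C had a log2 change of 1.49. Among the 243 LTR families at the floor that are no internal parts, IAPLTR1_Mm was at place 4 by log2 change. The closest of the 18 was LTRIS2, an LTR of a class I retrovirus, at 0.315 and 0.575 RPKM, a ratio of 1.82. LTR81C followed at 0.191 and 0.267 RPKM with 111 copies, and then RLTR19A at 0.111 and 0.134 RPKM. Likeness was measured as the gap in log2 change between the 2 libraries alone.

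A read in an LTR can come from a transcript that starts there, from one that ends there or from a gene that runs through the copy, and a family value cannot tell these apart. Nor can it tell a few highly active copies from many weakly active ones.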

How the data were processed

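RNA-seq libraries of 1 control and 1 Daxx-deleted ES cell culture were made from total RNA with the TruSeq RNA kit, per the labels' protocols. Reads were aligned by the authors, per the file headers (the workbook's info sheet), to mm9 with JAGuaR 2.1, which uses BWA (version 0.7.10, per the submitters' processing notes) and exon junctions of Ensembl 67. The deposited RPKM values are scaled by the authors to exonic reads of protein-coding genes, without mitochondrial and ribosomal proteins and the top 0.5% of exons, and multi-mapped reads were kept. The deposited table also gives the number of elements per family, used as copy number. The sources used here do not give how multi-mapped reads were shared out, whether reads were pooled or averaged over copies, which repeat annotation was used, or whether strand was.

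Columns were matched to samples by treatment, and 0 columns belonged to other samples. Total reads are not given. Among the 40 families with the lowest level times copies, 0 pairs had quotients equal within 0.1%, so whole reads were not recovered, depth is unknown, and no interval or detection limit is given.

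The log2 change used a pseudocount of 0.001 RPKM, which understates the change of low families, and thresholds of 1.5-fold and 2-fold. Members, lists, thresholds and floor were chosen with earlier results of these data known. The background in the level range of the lower members was added after the values were seen. All members are named. Outside them, the rule named the internal parts of the pairs and the 3 closest families. IAP-d-int, RLTR10C, RLTR44B and MT2_Mm were named after their values were seen. Pairs were set by shared name, with IAPEz-int beside the IAPLTR1 and IAPLTR2 families. Alternatives were pseudocounts of 0.0001, 0.01 and 0.1 RPKM, subtraction of the median family, the floor of 0.01 RPKM and 100 copies, a floor of 0.05 RPKM, a minimum of 1000 copies, a 3-fold threshold, sums without the highest member or weighted by copies, and quotients. Values were computed with pandas 2.3.3 and numpy 2.4.6 under Python 3.11.15 and drawn with matplotlib 3.10.9.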

Additional observations from a re-analysis of the deposited data

How the results depend on the processing

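A value was counted as moved when it changed by over 1.5 times or changed sign, since single libraries give no error. For log2 changes the limit applied to the log2 values themselves, so small log2 changes moved easily. The 4 families at least 1.5-fold higher became 3, without IAPLTR4, relative to the median family and at a pseudocount of 0.01 RPKM. They became 1 at a pseudocount of 0.1 RPKM, 1 where a mean of 0.05 RPKM was required and 0 at the 3-fold threshold. The 1 family 2-fold higher became 2 at a pseudocount of 0.0001 RPKM, 0 at 0.1 RPKM and 0 at the 3-fold threshold. Shares of all families at these settings are not given, so these counts have no background. The median log2 change of 0.43 became 0.27 at a pseudocount of 0.01 RPKM and 0.064 at 0.1 RPKM. It was 0.25 relative to the median family and 0.93 over the families of at least 1000 copies. It was 1.40 where a mean of 0.05 RPKM was required, which left IAPLTR1_Mm alone. The log2 ratio of the sums, 0.99, became 0.48 without IAPLTR1_Mm and 1.12 when weighted by copies. Larger pseudocounts lower these values by construction, being large beside most levels. No family past 1.5-fold changed direction under these pseudocounts or relative to the median family. Of the log2 changes of single families, 21 alternative values stayed within the limit and 19 moved. No paired analysis was possible because there was 1 library for each condition.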
